A study of Schizosaccharomyces pombe with 2 samples.

Results

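Noncoding transcription units (nc-TUs) are stretches of the fission yeast (Schizosaccharomyces pombe) genome that an earlier study of RNA synthesis found to be transcribed without coding for a protein. The deposited table of small RNA densities gives them a type of their own, beside mRNAs, annotated ncRNAs and XUTs, and every row of that type was taken here: 487 nc-TUs of 9139 features. The nc-TUs were split by whether an XUT shared at least 1 nt with them on their own strand, and by whether they were antisense, that is, shared 50 nt or more with a gene on the opposite strand. This gave 67 antisense nc-TUs with an XUT, 32 nc-TUs with an XUT that were not antisense, 287 antisense nc-TUs without an XUT, and 101 nc-TUs that had neither. XUTs were defined from total RNA of the same strains, sequenced in other libraries, so the split does not use the small RNA values.

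Small RNAs of 10 to 40 nt were gel-purified and sequenced from exponentially growing cells of 2 strains, with 1 library each. The exo2Δ strain is YAM2397, in which exo2 is replaced by kanMX4, and the wild-type (WT) strain is YAM2394. Both are h+ strains that carry the alleles ade6-M210, ura4-D18 and leu1-32 and were grown in rich medium. With 1 library per strain the differences below have no replicate check and the strains could not be tested. Intervals are 95% intervals of the read counts. They cover counting error alone, as molecules were not tagged before amplification and reads may be copies of each other. In a culture, fewer molecules per cell and fewer cells that hold them cannot be told apart.

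Exo2, known in other eukaryotes as Xrn1, is a cytoplasmic exonuclease that degrades RNA from its 5′ end, and XUTs are the long noncoding RNAs that accumulate without it. Fission yeast also has RNA interference: Dicer cuts double-stranded RNA into small interfering RNAs, which are best known from the centromeric repeats. A noncoding transcript antisense to an mRNA could in principle pair with it, so its small RNA reads were compared between the strains. A library of short RNA also holds fragments of abundant stable RNAs, among them the spliceosomal snRNAs U2, U4 and U5 and the snoRNAs that guide rRNA processing and modification.

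The sequences of 5 nc-TUs carry the main observations below and are shown 5′ to 3′ on the strand of the nc-TU. They were read from the RefSeq chromosomes of ASM294v3, and the build of the deposited processing is ASM294v2. Of 10190 coding exons in the table, 98.4% stand at the same coordinates in RefSeq, and 99.9% of 2726 genes with 1 coding exon begin with ATG there, so the positions were used as deposited. The nc-TU novelncTU_268 (chrI:958924-959567, minus strand) has the most reads, and its first 300 of 644 nt are given with U2 (snu2) in capitals. The nc-TU novelncTU_372 (chrII:467233-467611, minus strand) is given in 2 lines that together make up its 379 nt. In the first line, capitals mark the U4 gene (snu4) of RefSeq, and in the second they mark the place where the deposited table puts U4. The nc-TU novelncTU_468 (chrIII:1717920-1718144, minus strand) is given whole, with the snoRNA snR46 of RefSeq in capitals. The first 300 of 378 nt of novelncTU_410 (chrII:2641195-2641572, minus strand) show the nc-TU with the most reads outside any feature listed on its strand. The first 150 of 580 nt of novelncTU_440 (chrIII:533274-533853, minus strand) show an nc-TU antisense to a gene and inside an XUT. Neither of these holds a marked part.
novelncTU_268: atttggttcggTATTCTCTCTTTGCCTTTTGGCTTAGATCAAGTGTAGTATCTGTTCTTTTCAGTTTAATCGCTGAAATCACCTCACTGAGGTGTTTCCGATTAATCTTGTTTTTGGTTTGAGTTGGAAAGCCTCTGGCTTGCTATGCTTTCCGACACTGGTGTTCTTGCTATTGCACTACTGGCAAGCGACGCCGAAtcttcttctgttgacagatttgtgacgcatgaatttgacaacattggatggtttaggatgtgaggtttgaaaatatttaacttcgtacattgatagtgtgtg
novelncTU_372, first part: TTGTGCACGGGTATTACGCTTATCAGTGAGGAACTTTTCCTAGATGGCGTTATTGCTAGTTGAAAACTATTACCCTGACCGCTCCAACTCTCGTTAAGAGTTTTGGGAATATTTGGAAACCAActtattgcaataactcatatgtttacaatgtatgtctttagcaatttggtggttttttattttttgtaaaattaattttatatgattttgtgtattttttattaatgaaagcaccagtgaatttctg
novelncTU_372, second part: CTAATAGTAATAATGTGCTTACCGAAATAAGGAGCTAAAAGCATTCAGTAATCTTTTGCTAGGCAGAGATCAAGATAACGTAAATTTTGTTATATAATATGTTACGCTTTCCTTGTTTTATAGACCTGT
novelncTU_468: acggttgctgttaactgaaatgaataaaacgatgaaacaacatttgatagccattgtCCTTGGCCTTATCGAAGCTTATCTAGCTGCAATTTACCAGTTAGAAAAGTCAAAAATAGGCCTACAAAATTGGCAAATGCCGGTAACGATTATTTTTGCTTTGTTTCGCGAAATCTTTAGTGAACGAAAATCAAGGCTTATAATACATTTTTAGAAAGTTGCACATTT
novelncTU_410: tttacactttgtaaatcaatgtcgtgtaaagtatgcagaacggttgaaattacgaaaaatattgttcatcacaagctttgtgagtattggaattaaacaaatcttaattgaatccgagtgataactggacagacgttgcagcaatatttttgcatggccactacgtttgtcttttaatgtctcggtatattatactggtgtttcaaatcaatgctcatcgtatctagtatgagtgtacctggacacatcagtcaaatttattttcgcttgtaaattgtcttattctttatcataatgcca
novelncTU_440: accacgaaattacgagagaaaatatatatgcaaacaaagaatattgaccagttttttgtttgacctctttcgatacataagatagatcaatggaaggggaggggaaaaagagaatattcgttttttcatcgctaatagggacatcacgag

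Few small RNA reads fell in nc-TUs. All features together held 13678760 reads in exo2Δ and 13555082 reads in WT, and the nc-TUs held 7005 reads in exo2Δ and 9735 reads in WT. Their share of all feature reads was thus 0.0512% in exo2Δ (Wilson interval 0.0500% to 0.0524%) and 0.0718% in WT (0.0704% to 0.0733%). The deleted gene served as a check of the labels, and its coding exons held 26 reads in exo2Δ and 251 reads in WT. The whole gene held 57 reads in exo2Δ and 254 reads in WT. The origin of the reads left in exo2Δ was not tested. The median nc-TU had 2 reads in exo2Δ and 3 reads in WT, a density of 0.00510 and 0.00690 tags per nt. No read was found in 113 nc-TUs in exo2Δ and in 112 in WT, and 56 of these had none in either library. In most nc-TUs a difference between the strains was therefore not detectable at this depth.

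The nc-TUs lay at 245 places on chromosome I, 142 on chromosome II and 100 on chromosome III, and 250 were on the plus strand and 237 on the minus strand. Their median length was 376 nt, with a range of 201 to 3829 nt. GC content was higher in the antisense classes. Its median was 38.8% in antisense nc-TUs with an XUT and 42.0% in those without one, against 35.7% in the nc-TUs with an XUT that were not antisense and 33.4% in those with neither. On their own strand, 257 nc-TUs (52.8%) shared no base with another listed feature, 146 shared bases with a gene, 79 with an XUT and no gene, and 5 with an snRNA or snoRNA gene. The members are not independent of each other. The 99 nc-TUs with an XUT shared 87 XUTs, the 354 antisense nc-TUs lay opposite 312 genes, and the 146 nc-TUs on the strand of a gene shared 131 genes.

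**Figure D1:**
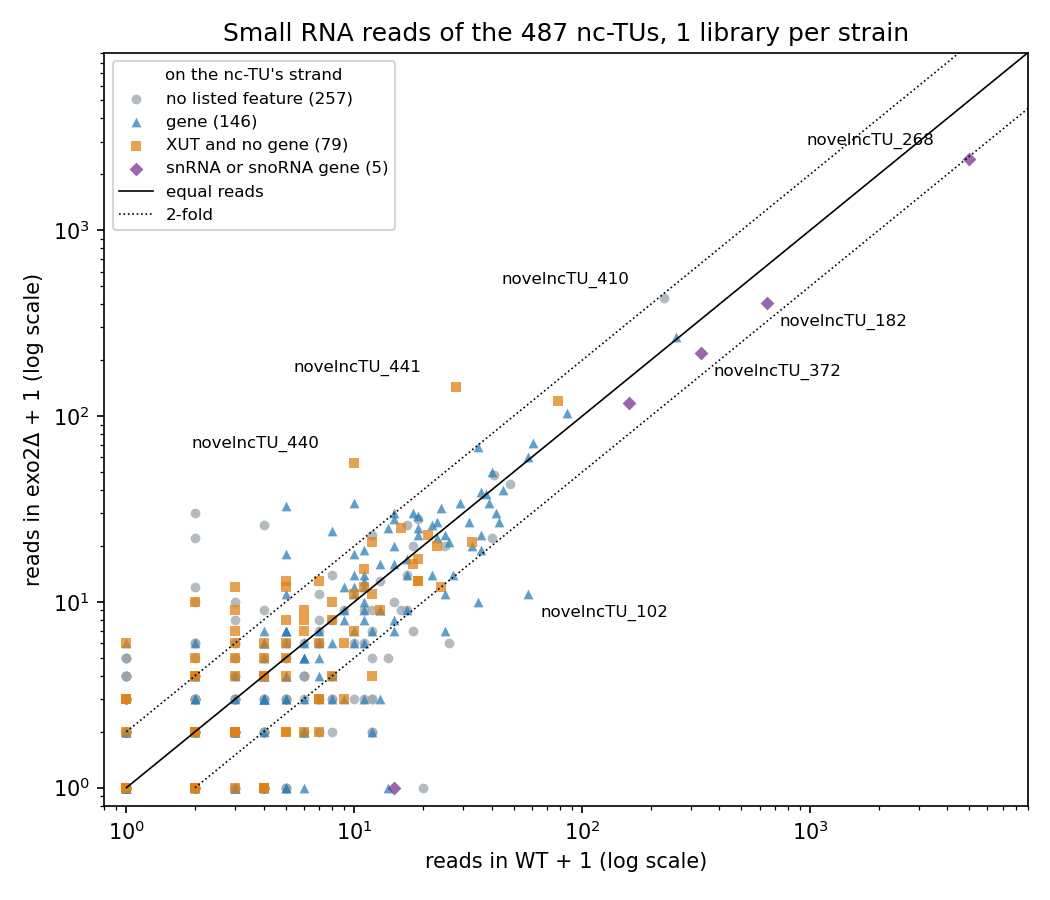
Reads of each nc-TU in the exo2Δ library (vertical axis) and in the WT library (horizontal axis), with 1 added for the log scales. Colours and shapes give what shares the strand of the nc-TU, the solid line marks equal reads and the dotted lines a 2-fold difference. Most of the 487 points lie under 10 reads, and 3 of the nc-TUs over snRNA or snoRNA genes lie among the 4 with the most reads.

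The reads were concentrated in a few nc-TUs. The 10 with the largest mean density held 55.1% of all nc-TU reads in exo2Δ and 68.2% in WT. The nc-TU over U2 alone held 34.4% in exo2Δ and 51.3% in WT. The 5 nc-TUs on the strand of an snRNA or snoRNA gene held 3149 reads in exo2Δ and 6144 reads in WT, that is 45.0% and 63.1% of all nc-TU reads. The other 482 nc-TUs held 3856 reads in exo2Δ and 3591 reads in WT, a density 1.07-fold higher in exo2Δ (1.02 to 1.12). The interval held 1 without novelncTU_410 (fold 1.02, 0.969 to 1.07) and without novelncTU_441 (fold 1.04, 0.993 to 1.09). The log2 ratio of the sum over these 482 was 0.10, smaller than the shift of -0.24 from scaling to equal snRNA and snoRNA sums. Its direction therefore depended on the scaling. Over all 487 the density was 0.718 times that of WT (0.696 to 0.741). At the deposited scaling, the lower sum over all nc-TUs in exo2Δ thus came from the 5 over snRNA or snoRNA genes.

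U2 is the spliceosomal snRNA that base-pairs with the branch point of introns. Across novelncTU_268, which holds the whole U2 gene, 2409 reads were counted in exo2Δ and 4995 reads in WT, a fold of 0.481 (0.458 to 0.505). The U2 gene and the rest of this nc-TU moved in opposite directions. The 187 nt of U2, at nt 12 to 198 of the nc-TU, had 1185 reads in exo2Δ and 661 reads in WT, 1.79-fold higher in exo2Δ (1.63 to 1.97). The remaining 457 nt, of which all but 11 lie 3′ of U2, had 1224 reads in exo2Δ and 4334 reads in WT, 3.55-fold lower in exo2Δ (3.33 to 3.78). U2 therefore took 49.2% of the reads of the nc-TU in exo2Δ and 13.2% in WT.

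U5, which holds the exons in place during splicing, begins 5 nt upstream of novelncTU_182 (chrII:3236872-3237440, plus strand). This nc-TU had 406 reads in exo2Δ and 645 reads in WT, a density 1.59-fold lower in exo2Δ (1.40 to 1.81). The U5 gene (snu5) itself had 262 reads in exo2Δ and 283 reads in WT. At least 144 reads in exo2Δ and 362 reads in WT therefore lay in the 454 nt of the nc-TU that U5 does not cover. As at U2, most of the WT reads lay beyond the gene. Both counts are minima, since 5 nt of U5 lie outside the nc-TU, so the part beyond U5 could not be compared between the libraries.

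U4 pairs with U6 before the spliceosome is activated. At novelncTU_372 the deposited table and RefSeq place it differently. The row for U4 in the table covers nt 251 to 379 of the nc-TU and had 2 reads in exo2Δ and 2 reads in WT. RefSeq places U4 from just upstream of the nc-TU to nt 123, as shown in the first line of its sequence above. The 250 nt outside the table's U4 row had 216 reads in exo2Δ and 329 reads in WT, a density 1.53-fold lower in exo2Δ (1.28 to 1.82). Nearly all reads of the nc-TU were thus in the part that holds the U4 gene of RefSeq, although the table does not resolve them further.

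The snoRNA gene snR46 (SPSNORNA.41) showed a second such mismatch, in strand. The table lists it on the plus strand at nt 58 to 225 of novelncTU_468, with 0 reads in exo2Δ and 2 reads in WT. RefSeq has it at the same coordinates on the minus strand, which is the strand of the nc-TU. The nc-TU had 42 reads in exo2Δ and 47 reads in WT, a fold of 0.892 (0.574 to 1.38) whose interval holds 1. Of 62 snRNA and snoRNA rows on the 3 chromosomes, this was the 1 row on the other strand in RefSeq, and U4 was the 1 row that shared no base with its RefSeq gene.

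U3, the snoRNA that is needed for the first cleavages of the rRNA precursor, shares 164 nt with novelncTU_269 (chrI:987662-987948, minus strand). The nc-TU had 116 reads in exo2Δ and 159 reads in WT, and the U3 gene (snu3) had 111 reads in exo2Δ and 155 reads in WT. At least 5 reads in exo2Δ and 4 reads in WT lay outside U3. How many more did is not known, since 92 nt of U3 lie outside the nc-TU. The fifth nc-TU of this group, novelncTU_6, runs into the snoRNA gene snR97. It had 0 reads in exo2Δ and 14 reads in WT, and the interval of the fold reached from 0 to 0.301. Its mean of 7 reads lies below the limit of 10 reads used for single ratios below. The gene snR97 itself had 0 reads in exo2Δ and 1 read in WT. This nc-TU also lies inside the annotated ncRNA SPNCRNA.617. The rest of that ncRNA had 51 reads in exo2Δ and 15 in WT, 3.39-fold higher in exo2Δ (1.88 to 6.50).

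**Figure D2:**
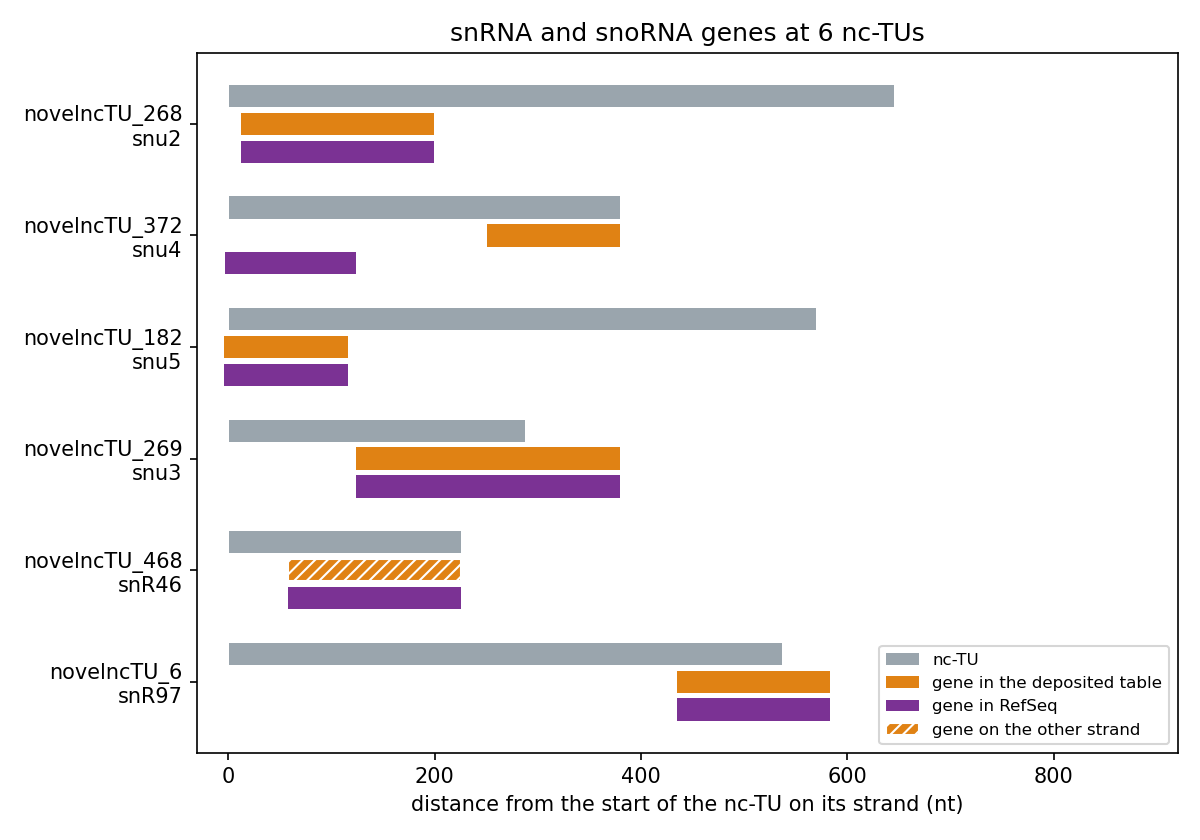
Position of snRNA and snoRNA genes along 6 nc-TUs, in nt from the start of each nc-TU on its strand. Grey bars are nc-TUs, orange bars the genes as the deposited table places them, and purple bars the same genes in RefSeq. The 2 sources differ at novelncTU_372, where U4 (snu4) is moved, and at novelncTU_468, where snR46 (hatched) is on the other strand.

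Reads on the other strand of a snoRNA did not spill into an nc-TU. The nc-TU novelncTU_295 lies opposite the snoRNA gene snr79, which had 3448 reads in exo2Δ and 2020 reads in WT. The nc-TU itself had 2 reads in exo2Δ and 3 reads in WT. The deposited densities were thus resolved by strand.

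Outside these stable RNAs, the nc-TU with the most reads was novelncTU_410. It had 429 reads in exo2Δ and 228 reads in WT, 1.88-fold higher in exo2Δ (1.60 to 2.21). No listed feature shares its strand, and the annotated ncRNA opposite, SPNCRNA.403, had 0 reads in exo2Δ and 0 reads in WT. RefSeq lists a long noncoding RNA, SPNCRNA.5756, on its strand there. After novelncTU_410 the counts of nc-TUs that touch no stable RNA dropped quickly. Only 6 of all nc-TUs had a mean of at least 100 reads over the 2 libraries.

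Ratios of single nc-TUs were read in the 98 of 487 that had a mean of at least 10 reads. The nc-TUs at this limit had means of 10 reads, and the nearest below it had 9.5. A log2 ratio of exo2Δ over WT was taken after adding 1 read to both libraries. Its median was 0.05 over these 98 nc-TUs, against -0.13 over all 5945 features that passed the same filter, 0.17 over 334 XUTs, -0.08 over 557 annotated ncRNAs and -0.15 over 4749 mRNAs. More than 2-fold higher in exo2Δ were 9 nc-TUs (9.18% of the 98), where 3.97% of all features, 14.7% of XUTs and 8.62% of annotated ncRNAs were. More than 2-fold lower were also 9 (9.18%), where 6.91% of all features, 7.49% of XUTs and 18.0% of annotated ncRNAs were. These nc-TUs had a median of 19.75 reads, averaged over both libraries, and all features that passed had 85, so the ratios of nc-TUs carry more counting error. The interval of the fold left out 1 for all 9 nc-TUs that were higher and for 7 of the 9 that were lower. These nc-TUs were picked by the same reads, so their intervals add no separate support. Of the 9 that were higher, 3 had at most 3 reads in WT.

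The 4 classes had medians close to each other. Among antisense nc-TUs with an XUT, 14 of 67 passed the filter, their median log2 ratio was 0.06, 3 were over 2-fold higher and 1 was over 2-fold lower in exo2Δ. Of the nc-TUs with an XUT that were not antisense, 9 of 32 passed, with a median of -0.17 and none beyond 2-fold. Of the antisense nc-TUs without an XUT, 36 of 287 passed, with a median of 0.10, 5 higher and 2 lower. Of the nc-TUs with neither, 39 of 101 passed, with a median of -0.07, 1 higher and 6 lower. The intervals of all 4 medians held 0 and the median of all features.

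The summed reads of the classes differed more than their medians. Antisense nc-TUs with an XUT had 651 reads in exo2Δ and 455 reads in WT, 1.43-fold higher in exo2Δ (1.26 to 1.61). Those with an XUT that were not antisense had 317 reads in exo2Δ and 288 reads in WT, a fold of 1.10 (0.933 to 1.29). Antisense nc-TUs without an XUT had 1491 reads in exo2Δ and 1576 reads in WT, a fold of 0.944 (0.879 to 1.01), and 0.926 (0.862 to 0.995) without novelncTU_342 or 0.930 (0.866 to 0.999) without novelncTU_356. The nc-TUs with neither had 4546 reads in exo2Δ and 7416 reads in WT, a fold of 0.612 (0.589 to 0.635). In the last class, 4 nc-TUs over snRNA or snoRNA genes set this value, and the 97 others had 1397 reads in exo2Δ and 1286 reads in WT, a fold of 1.08 (1.004 to 1.17). That value rested on novelncTU_410, without which the 96 others had 968 reads in exo2Δ and 1058 reads in WT, a fold of 0.913 (0.836 to 0.997), and the interval of the 1.08 held 1 when any 1 of several others was left out. Of the 97, 29 had more reads in exo2Δ and 52 had fewer.

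**Figure D3:**
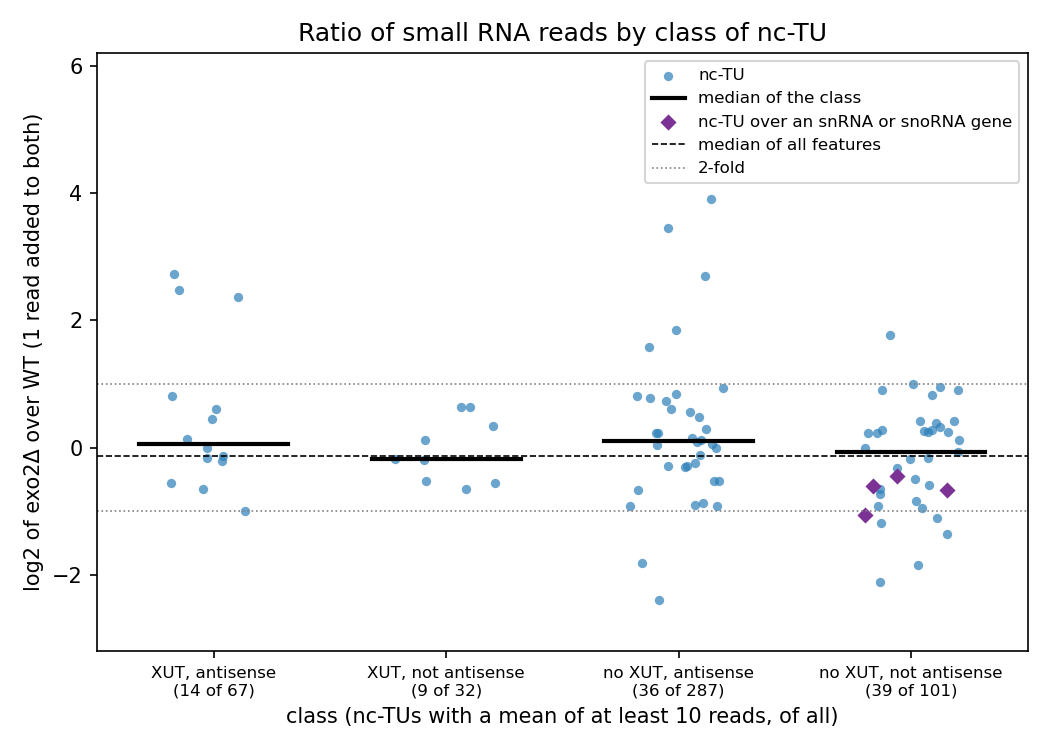
Log2 ratio of exo2Δ over WT (vertical axis, 1 read added to both) of the 98 nc-TUs with a mean of at least 10 reads, by class. Points are nc-TUs, diamonds those over snRNA or snoRNA genes, thick lines the medians of the classes, the dashed line the median of all features (-0.13) and dotted lines a 2-fold difference. The class medians lie between -0.17 and 0.10, and the highest ratios are in the 2 antisense classes.

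In the first class a pair of nc-TUs decided the sum. Both lie in XUT0051, antisense to tcb2, a gene with the name of the tricalbins that tether the endoplasmic reticulum to the plasma membrane in budding yeast. The nc-TU novelncTU_440 had 55 reads in exo2Δ and 9 reads in WT, 6.10-fold higher in exo2Δ (2.99 to 14.0). Its neighbour novelncTU_441 (chrIII:534035-536923, minus strand) had 143 reads in exo2Δ and 27 reads in WT, 5.29-fold higher (3.48 to 8.30). The 1051 nt of XUT0051 outside them had 23 reads in exo2Δ and 2 reads in WT, a ratio of 11.5 (2.84 to 100.4), so all pieces of the XUT were higher in exo2Δ. The sense gene tcb2 had 109 reads in exo2Δ and 100 reads in WT. Without these 2 nc-TUs, the summed log2 ratio of the class was 0.11 (-0.09 to 0.30), against 0.51 with them.

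At XUT0757 the nc-TU and its XUT parted. The nc-TU novelncTU_363 (chrI:5222227-5222872, minus strand) had 37 reads in exo2Δ and 37 reads in WT. The other 459 nt of the XUT had 6 reads in exo2Δ and 328 reads in WT, 54.8-fold lower in exo2Δ (24.9 to 150.4). The nc-TU lies on the strand of atg43, whose product is a mitochondrial receptor for autophagy, after its coding exons. The gene as a whole had 88 reads in exo2Δ and 418 reads in WT. A value for an XUT or a gene thus did not stand for the nc-TU within it.

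The other nc-TUs with an XUT that were named by the rule differed less. The nc-TU novelncTU_147 (chrII:1455390-1456215, plus strand), which is not antisense, had 120 reads in exo2Δ and 77 reads in WT, 1.56-fold higher (1.16 to 2.10), and XUT1059 over it had 121 reads in exo2Δ and 76 in WT. The nc-TU novelncTU_195, before the coding exons of the corepressor gene ssn6, had 33 reads in exo2Δ and 38 in WT (fold 0.867, 0.527 to 1.42). The nc-TU novelncTU_312, with XUT0670, had 20 reads in exo2Δ and 32 in WT (fold 0.624, 0.338 to 1.12). The intervals of both held 1. XUT0590 had 91404 reads in exo2Δ and 173899 in WT, yet its nc-TU novelncTU_290 had 6 reads in exo2Δ and 4 in WT. In the 57 other XUTs that hold nc-TUs whole, the nc-TUs had 584 reads in exo2Δ and 403 in WT. The rest of these XUTs had 325 reads in exo2Δ and 555 in WT, and without XUT0757 it had 319 in exo2Δ and 227 in WT. Without XUT0757 and XUT0051, the nc-TUs had 349 reads in exo2Δ and 330 in WT, and the rest had 296 in exo2Δ and 225 in WT.

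**Figure D4:**
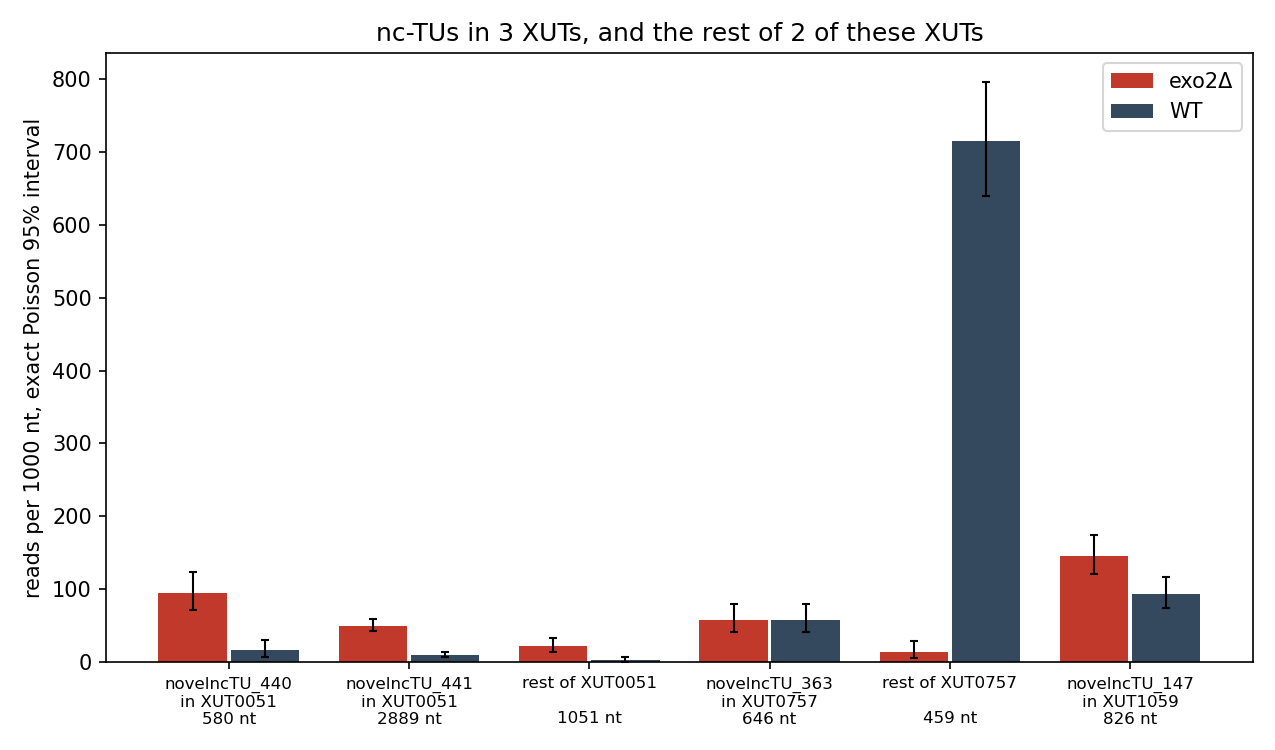
Reads per 1000 nt (vertical axis) of the nc-TUs in XUT0051, XUT0757 and XUT1059 and of the rest of the first 2 XUTs, in exo2Δ (red) and WT (dark blue). Bars are the counts of 1 library each, scaled by length, with exact Poisson 95% intervals. In XUT0051 all 3 pieces are higher in exo2Δ, and in XUT0757 only the rest, not novelncTU_363, is lower.

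On the strand of genes, 77 nc-TUs lay before the coding exons, 65 after them and 4 overlapped a coding exon. Together the 146 had 1906 reads in exo2Δ and 1973 reads in WT, a fold of 0.964 (0.905 to 1.03). Before the coding exons the summed fold was 1.05 (0.962 to 1.15), and after them it was 0.886 (0.809 to 0.970). Without novelncTU_102 the second of these was 0.928 (0.846 to 1.02). The reads of an nc-TU and of its gene overlap, so the values of the pair are not independent. Transcript ends are as the table gives them, and whether these reads come from the mRNA or from a separate transcript was not tested.

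Of those named by the rule, several were higher in exo2Δ. The rest of the gene also had more reads there in amt1 and rsn1, while in cao1 the interval of its fold held 1. Before the coding exons of amt1, which codes for an ammonium transporter, novelncTU_240 had 67 reads in exo2Δ and 34 in WT, 1.97-fold higher (1.28 to 3.06). The rest of amt1 had 646 reads in exo2Δ and 263 in WT. In rsn1, novelncTU_375 had 33 reads in exo2Δ and 9 in WT, 3.66-fold higher (1.71 to 8.69). The rest of rsn1 had 227 reads in exo2Δ and 84 in WT. In cao1, a copper amine oxidase gene, novelncTU_55 had 29 reads in exo2Δ and 14 in WT, 2.07-fold higher (1.06 to 4.23). The rest of cao1 had 164 reads in exo2Δ and 132 in WT (fold 1.24, 0.980 to 1.57).

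Others were lower in exo2Δ. After the coding exons of rki1, which codes for the ribose-5-phosphate isomerase of the pentose phosphate pathway, novelncTU_102 had 10 reads in exo2Δ and 57 in WT, 5.71-fold lower (2.89 to 12.5). The rest of rki1 had 412 reads in exo2Δ and 564 in WT. This nc-TU also lies inside srw1, a gene for an activator of the anaphase-promoting complex, on the other strand, which had 13 reads in exo2Δ and 32 in WT. After the coding exons of vts1, an RNA-binding protein gene, novelncTU_414 had 9 reads in exo2Δ and 34 in WT, 3.79-fold lower (1.78 to 8.98). The rest of vts1 had 81 reads in exo2Δ and 91 in WT (fold 0.888, 0.650 to 1.21). The gene opposite novelncTU_414, the splicing factor gene cwf24, had 15 reads in exo2Δ and 53 in WT. At novelncTU_364, in atg43, 18 reads were counted in exo2Δ and 35 in WT, 1.95-fold lower (1.07 to 3.65).

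For 4 further nc-TUs on the strand of genes the interval of the fold held 1. In mug115, novelncTU_276 (2333 nt) had 266 reads in exo2Δ and 256 in WT, a fold of 1.04 (0.870 to 1.24), and held most of the 299 reads in exo2Δ and 291 in WT of this gene. In ptr2, a peptide transporter gene, novelncTU_418 had 103 reads in exo2Δ and 85 in WT (fold 1.21, 0.898 to 1.63). In pdh1, novelncTU_436 had 59 reads in exo2Δ and 57 in WT (fold 1.03, 0.705 to 1.51), while the kinetochore gene fta7 opposite had 10 in exo2Δ and 34 in WT. In cid12, whose product belongs to the RNA-directed RNA polymerase complex of RNA interference, novelncTU_231 had 71 reads in exo2Δ and 60 in WT (fold 1.18, 0.826 to 1.69). With no gene on its strand, novelncTU_233 had 21 reads in exo2Δ and 39 in WT, 1.86-fold lower (1.07 to 3.33), opposite dad5 of the kinetochore DASH complex.

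**Figure D5:**
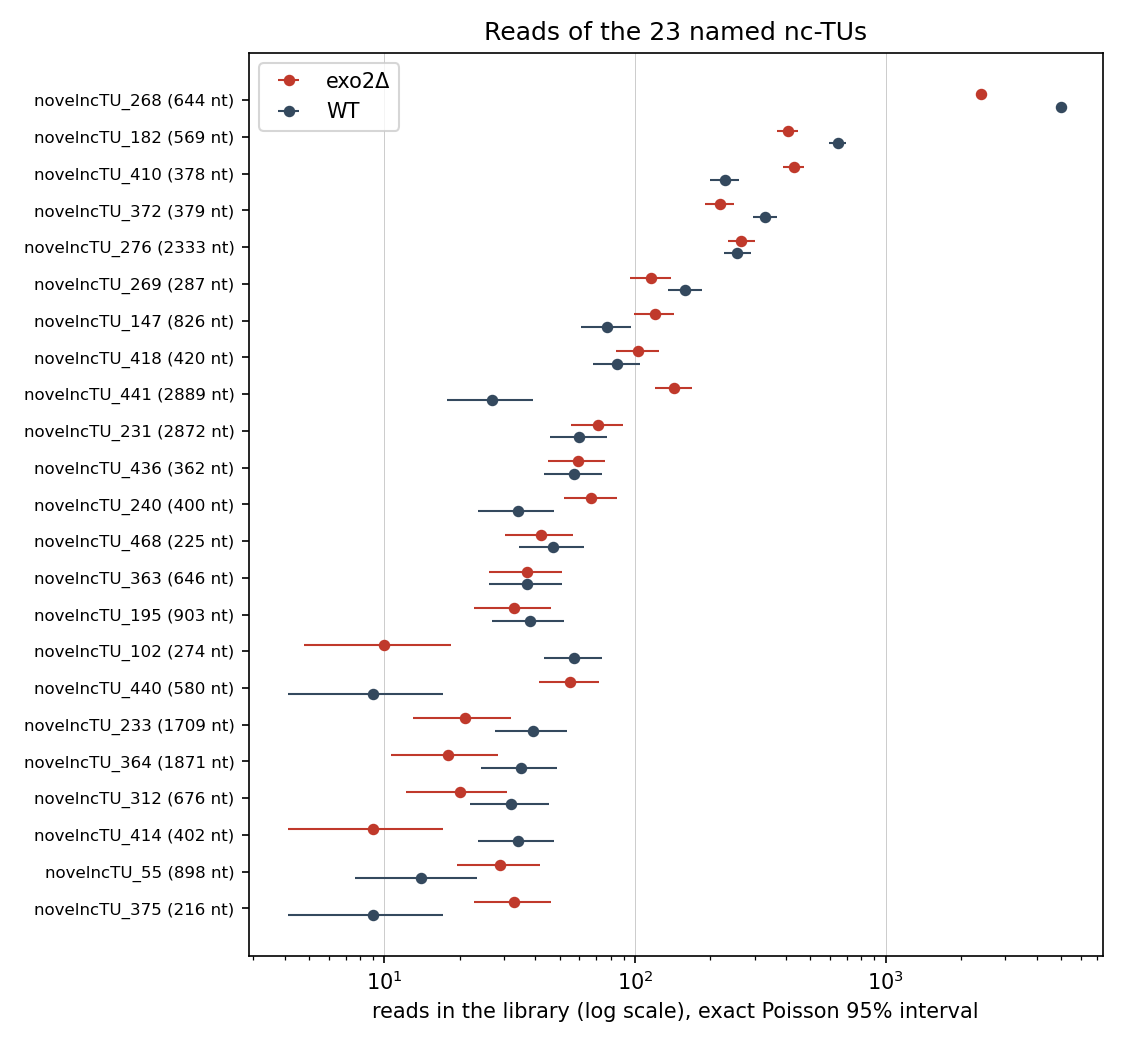
Reads of the 23 nc-TUs named by rule, in exo2Δ (red) and WT (dark blue), on a log axis with exact Poisson 95% intervals, ordered by the reads of both libraries together. The length stands in brackets. Among the points farthest apart are novelncTU_440, novelncTU_441 and novelncTU_102, which had 55, 143 and 10 reads in exo2Δ against 9, 27 and 57 in WT.

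Of the 9 nc-TUs over 2-fold higher in exo2Δ, 8 lay antisense inside a gene. Of the 98 that passed the filter, 31 did (31.6%), and of all 487, 302 did. Of the 9 that were lower, 3 did. Some of the 9 that were higher passed the filter only through their reads in exo2Δ, and novelncTU_440 and novelncTU_441 lie in the same XUT. The 8 are therefore not a result about antisense position. The rule for naming covers 3 of the 9 that were higher, and the other 6 were picked out after their values were seen. Of these, 3 share their strand with no listed feature. Opposite not3, a subunit gene of the CCR4-NOT deadenylase, novelncTU_342 had 29 reads in exo2Δ and 1 in WT, a ratio of 28.9 (4.80 to 1180). Opposite the nucleoporin gene nup44, novelncTU_407 had 21 reads in exo2Δ and 1 in WT (ratio 21.0, 3.37 to 867). Opposite SPAC29A4.02c, novelncTU_356 had 25 reads in exo2Δ and 3 in WT (ratio 8.32, 2.54 to 43.0). On the other strand, not3 had 104 reads in exo2Δ and 129 in WT, nup44 had 115 in exo2Δ and 210 in WT, and SPAC29A4.02c had 1733 in exo2Δ and 2417 in WT. Of all 312 genes opposite antisense nc-TUs, 211 had fewer reads in exo2Δ, beside 2836 of the 4817 genes without an antisense nc-TU. Most genes of both lists thus had fewer reads in exo2Δ.

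The 3 others share their strand with a gene. In ero12, an endoplasmic reticulum oxidase gene, and XUT0111, novelncTU_470 had 32 reads in exo2Δ and 4 in WT (fold 7.98, 2.83 to 31.1). In tri1 and opposite gas2, novelncTU_409 had 17 reads in exo2Δ and 4 in WT (fold 4.24, 1.38 to 17.3). In dar2 and opposite uri1, novelncTU_214 had 23 reads in exo2Δ and 7 in WT (fold 3.28, 1.36 to 9.05). Counts in WT were low in all 6, at most 7 reads. The rest of ero12 had 170 reads in exo2Δ and 122 in WT, and the rest of dar2 had 86 in exo2Δ and 83 in WT. The rest of tri1 went the other way, with 18 reads in exo2Δ and 25 in WT.

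The 6 nc-TUs over 2-fold lower that the rule does not cover had 5 to 11 reads in exo2Δ and 14 to 25 in WT. They were novelncTU_289, with 5 reads in exo2Δ and 25 in WT, novelncTU_159 in pib2, novelncTU_386, novelncTU_181 in gsf1, novelncTU_153 in pat1, the kinase gene that holds cells back from meiosis, and novelncTU_170 opposite dbp5, an mRNA export helicase gene. At novelncTU_153 and novelncTU_170 the interval of the fold held 1.

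Antisense nc-TUs as a whole had 2142 reads in exo2Δ and 2031 reads in WT, a fold of 1.05 (0.990 to 1.12), which was 1.08 (1.01 to 1.15) without novelncTU_102, 1.07 (1.002 to 1.13) without novelncTU_414 and 0.972 (0.913 to 1.04) without novelncTU_440 and novelncTU_441. Of these 354, 302 lay inside the opposite gene, 32 over its start, 19 over its end and 1 over all of it. Those inside had 1281 reads in exo2Δ and 1112 in WT, a fold of 1.15 (1.06 to 1.25). The log2 ratio of this sum, 0.20, is smaller than the shift of -0.24 from scaling on snRNAs and snoRNAs, so its direction depends on the scaling. Without novelncTU_440 and novelncTU_441 those inside had 1083 reads in exo2Δ and 1076 in WT, a fold of 1.004 (0.922 to 1.09). Those over the end had 172 in exo2Δ and 248 in WT, a fold of 0.692 (0.566 to 0.844). The 229 antisense nc-TUs with no listed feature on their strand had 626 reads in exo2Δ and 605 in WT, a fold of 1.03 (0.922 to 1.16). The median of these was 1 read in exo2Δ and 1 in WT. The genes opposite antisense nc-TUs had a median log2 ratio of -0.27 over the 296 of 312 that passed the filter, beside -0.15 over the 4453 genes without an antisense nc-TU that passed. Among the 296, 5 were over 2-fold higher and 19 over 2-fold lower in exo2Δ (1.69% and 6.42%), beside 2.45% and 4.96% of the 4453 and 3.97% and 6.91% of all features.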

How the data were processed

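Per the labels, Bowtie and cutadapt were used with the genome ASM294v2, and per the study's methods only uniquely mapped reads were kept, so repeats with several copies are not represented. The authors deposited a signal per feature and library, the tag density in tags per nt. For its own analysis of small RNAs the study kept reads of a set length range, and the sources used here do not say if the deposited densities are restricted in this way.

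Each density was multiplied by the length of its feature. The products were whole numbers in WT and whole multiples of 0.998 in exo2Δ in 100% of 19343 rows (tolerance 0.0001), and these whole reads were used. Folds compare the deposited densities. The 10204 coding exons were left out, and features overlap, so reads can be counted in several. The reads of the rest of a feature are its reads minus those of the part inside it. Reads that cross the edge of that part may therefore be among them. Intervals are exact binomial for folds of 1 feature or 1 sum, Wilson for shares and exact Poisson for counts, all at 95%. Medians have a binomial order interval. No test was possible with 1 library per strain.

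Named were the 10 nc-TUs of largest mean density, the 5 largest and 5 smallest ratios among those averaging 20 reads or more, and the 3 with the most reads in each of 4 classes, 23 in all. Members and lists were chosen with earlier results of these data known. The recovery of reads and the intervals were tested on simulated data. Python 3.11.15, pandas 2.3.3, NumPy 2.4.6, SciPy 1.17.1 and matplotlib 3.10.9 were used, and gene symbols and sequences came from RefSeq ASM294v3.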

Additional observations from a re-analysis of the deposited data

How the results depend on the processing

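Values below are log2 ratios of exo2Δ over WT unless named otherwise. No paired analysis was possible because there is only 1 library per strain. Scaling to equal snRNA and snoRNA sums shifted all ratios by -0.24, and scaling to a median mRNA ratio of 1 shifted them by 0.16. Under the first, the median of nc-TUs was -0.19, their summed ratio -0.72, 9 were over 2-fold higher and 16 lower, and the class sums were 0.27 (XUT, antisense), -0.11 (XUT, not antisense), -0.33 (no XUT, antisense) and -0.95 (no XUT, not antisense). Under the second, the summed ratio was -0.32, 14 were over 2-fold higher and 6 lower, and the sums of the 2 classes without an XUT were 0.072 (antisense) and -0.55 (not antisense).

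The main summed ratio of -0.48 turned to 0.27 without nc-TUs on the strand of a feature other than XUTs and ncRNAs, to 0.16 without those on the strand of any feature, and, an alternative chosen after seeing the data, to 0.10 without the 5 over snRNA or snoRNA genes. The values of 0.16 and 0.10 are smaller than the shift of -0.24 from scaling on snRNAs and snoRNAs, so their direction depends on the scaling. The value of 0.27 is larger than this shift, but the lower end of its interval, 0.17, is not. In the first 2 cases 5 and 3 nc-TUs were over 2-fold higher, and 3 and 2 lower. Their shares of all reads in these 3 cases were 0.0142%, 0.00873% and 0.0282% in exo2Δ and 0.0119%, 0.00785% and 0.0265% in WT, and without these 5 the sum of the class with no XUT, not antisense, turned to 0.12. Without the nc-TU with the most reads (in the whole list or in each class), the summed ratio was -0.048, the shares 0.0336% in exo2Δ and 0.0350% in WT, and the class sums 0.24 (XUT, antisense), -0.10 (XUT, not antisense) and -0.18 (no XUT, not antisense). Without the 5 with the most reads, the summed ratio was -0.0044, the shares 0.0240% in exo2Δ and 0.0242% in WT, and the class sums 0.086 for XUT, antisense and -0.13 for no XUT, not antisense. Without the 10 features with the most reads of the table, the share was 0.244% in exo2Δ and 0.347% in WT. The sum of the class XUT, antisense was 0.11 without the nc-TUs in XUT0051, an alternative also added after seeing the data.

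With no filter 50 nc-TUs were over 2-fold higher and 88 lower, with a minimum mean of 50 reads 1 and 1, and 6 were over 4-fold higher and 2 lower. Pseudocounts of 0.1 or 5 reads and other overlap limits for XUTs and antisense moved none of the values they were applied to by more than the interval or 1.5 times. That minimum left 1 nc-TU in each class with an XUT, so the value of XUT, antisense went to 2.36, that of novelncTU_441. Of 92 values of named nc-TUs under other scalings and pseudocounts, 4 moved beyond their interval and none changed its direction where the interval left out 1. Scaled on snRNAs and snoRNAs, however, the intervals of novelncTU_55 and novelncTU_147 came to hold 1, and that of novelncTU_312 left it out. Scaled on mRNAs, the intervals of novelncTU_269, novelncTU_364 and novelncTU_233 came to hold 1, and that of novelncTU_418 left it out. Whether these nc-TUs differed beyond counting error thus depended on the scaling. The low counts limit the ratios of single nc-TUs most.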
